A study of Sus scrofa with 9 samples.

Results

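The genes described here carry cholesterol into steroid hormone synthesis in the boar testis: STAR and 6 genes that supply it with cholesterol, SCARB1, HMGCS1, SQLE, FDFT1, SOAT1 and APOE. The 7 genes were chosen by name with earlier results of these arrays known, among them the comparison of t(1;14) with control, so their values in t(1;14) are given as a description, without a test. A probe was taken for a gene if its annotation gave the symbol as the gene name or in parentheses in the description. This found 18 probes for 5 of the 7 genes, against 5508 gene symbols with values on the array. HMGCS1 and FDFT1 had no such probe and were not analysed here.

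RNA of testicular biopsies was measured on 9 single-colour Agilent arrays of porcine probes, 3 for each of 3 groups. The t(1;14) arrays hold separate extractions of 1 Landrace × Duroc crossbred boar (2n=38,XY,trcp(1;14)), a carrier of a balanced reciprocal translocation with oligo-astheno-teratospermic semen. The control group has a normal karyotype (2n=38,XY) and normal semen, and the study names 3 fertile boars, elsewhere called a pool, without saying which boar or boars each control array holds, so whether the SD over the controls is a spread between animals is not known. The oligospermic group is 1 boar of normal karyotype (2n=38,XY), so both affected groups are single animals, every test compares arrays and not populations of boars, and other differences between the animals cannot be told apart from the karyotype or the semen class.

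Steroid hormones of the testis are made in Leydig cells from cholesterol. A Leydig cell makes cholesterol itself in the endoplasmic reticulum, takes it up from lipoproteins, or frees it from stored esters, and STAR then moves it to the inner mitochondrial membrane, where CYP11A1 cuts its side chain. This transfer is the step at which luteinizing hormone controls steroid output within minutes. In the pig testis the Leydig cells fill much of the space between the tubules, while most other cells of a biopsy are germ cells, so in this bulk RNA a smaller number of cells of a type and less RNA per cell cannot be told apart.

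Each probe is a strand of 60 bases of its transcript. Of the 18, these 5 are shown because they start at a lower base than the chosen probe, or for APOE near the 5′ end, each with at least 1 reading frame free of stop codons. The number is the first base of the probe in the transcript the annotation gives for it, the sequences come from the array annotation, and the capitals in the APOE probe mark its first ATG triplet.
STAR, base 552: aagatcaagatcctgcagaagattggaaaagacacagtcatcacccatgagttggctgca
SCARB1, base 344: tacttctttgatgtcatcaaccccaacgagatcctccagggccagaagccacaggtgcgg
SCARB1, base 1571: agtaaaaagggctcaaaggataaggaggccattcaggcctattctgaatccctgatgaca
SQLE, base 949: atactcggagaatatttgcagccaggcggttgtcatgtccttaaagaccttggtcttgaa
APOE, base 35: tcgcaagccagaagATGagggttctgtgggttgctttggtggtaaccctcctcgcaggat

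All values below are the normalized log2 intensities that the authors deposited, and a difference of 1 is a doubling of the intensity. They were quantile normalized over the 9 arrays, and between 37087 and 40632 probes per array were well above background. Every probe of the 5 measured genes was well above background and unsaturated on all 9 arrays. Each gene was read by its probe of highest mean over the arrays, and its other probes are given as a range. Levels are compared between groups for 1 probe at a time and never between probes.

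STAR, the protein that delivers cholesterol to the inner mitochondrial membrane, was the member with the largest difference. Its log2 intensity was 10.92, 11.64 and 10.70 on the 3 control arrays. It was 11.82, 11.62 and 11.08 on the oligospermic arrays and 14.71, 14.86 and 14.87 on the t(1;14) arrays. The t(1;14) arrays lay above all other arrays, and the oligospermic arrays overlapped the controls. The log2 fold change of t(1;14) against control was 3.72 ± 0.25 (SE, n = 3 and 3), a 13.2-fold higher intensity, and only 4 of the 5508 gene symbols had a higher one. Within the slides, each of which held 1 array of every group, the difference was 3.93, 3.23 and 4.01. The lowest of these came from the slide that held control 2, the highest control.

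Of the 8 STAR probes, 6 start between base 552, the sequence printed above, and base 2506 of one transcript, and the chosen probe and 1 more, at bases 2558 and 2554, are numbered on another. All 8 gave log2 fold changes between 3.52 and 3.90. The probe at base 552 read 7.54, 8.13 and 7.30 on the controls and 11.08, 11.25 and 11.42 on the t(1;14) arrays, a difference of 3.59 ± 0.23. Control 2 was the highest control on all 8 probes. Against the oligospermic arrays the log2 fold change of the gene's chosen probe was 3.31 ± 0.20, and the 8 probes lay between 3.23 and 3.66.

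**Figure D1:**
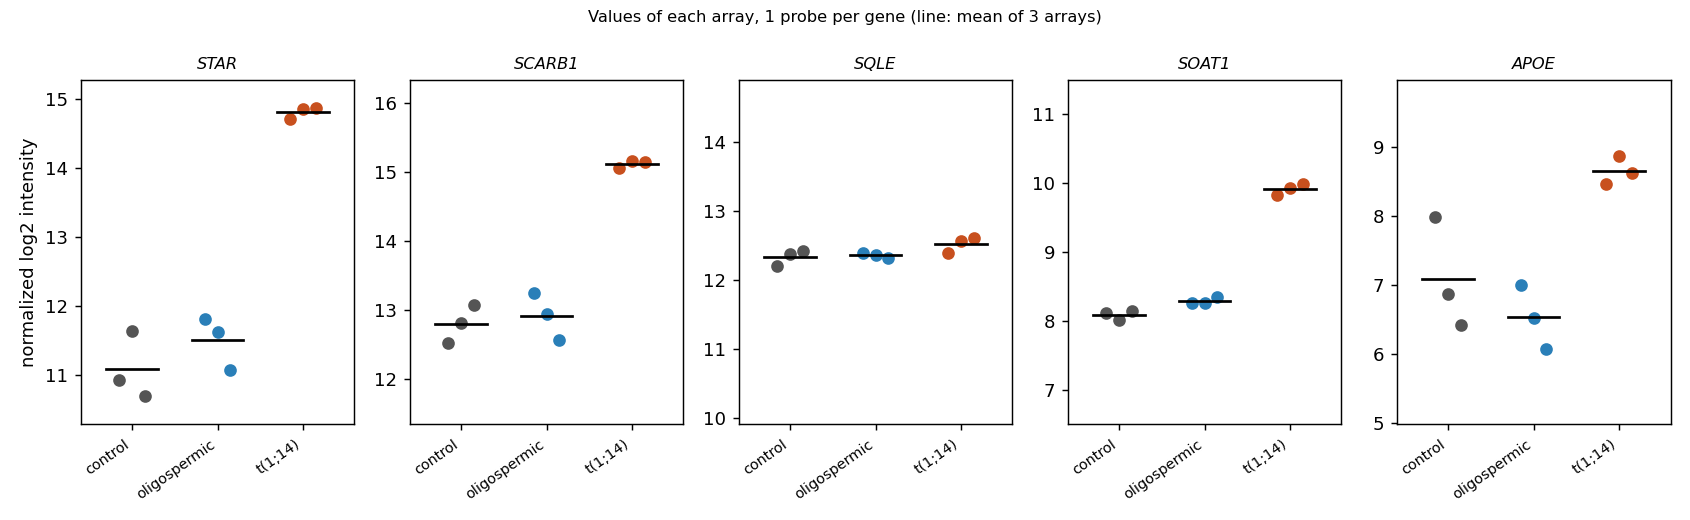
Normalized log2 intensity (vertical axis, the same span of 5 log2 units in each panel) of the chosen probe of STAR, SCARB1, SQLE, SOAT1 and APOE on each of the 3 control, 3 oligospermic and 3 t(1;14) arrays; points are arrays and lines are group means. The t(1;14) arrays of STAR, at 14.71 to 14.87, lie above every other array, while the SQLE arrays of all groups lie between 12.20 and 12.60.

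SCARB1, the receptor that takes cholesteryl esters from high-density lipoprotein into steroid-making cells, followed STAR in size. Its log2 intensity was 12.52, 12.81 and 13.07 on the controls and 15.05, 15.16 and 15.14 on the t(1;14) arrays. On the oligospermic arrays it was 13.25, 12.94 and 12.57, within and just above the range of the controls. The log2 fold change of t(1;14) against control was 2.31 ± 0.16, 4.97-fold, and it was 2.64, 2.33 and 1.98 within the slides. The 4 probes gave 1.54, 1.93, 2.05 and 2.31 in the order of their place in the transcript, and on each the t(1;14) arrays lay above all controls. In Sscrofa11.1 SCARB1 lies on chromosome 14, one of the chromosomes of the translocation, while STAR lies on chromosome 15.

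APOE, the lipoprotein component through which lipoproteins bind their receptors, was the most variable member. It read 7.99, 6.86 and 6.42 on the controls. It read 7.0, 6.52 and 6.08 on the oligospermic arrays and 8.47, 8.88 and 8.62 on the t(1;14) arrays. The SD over the controls was 0.81, against 0.21 over the t(1;14) arrays, and the t(1;14) arrays lay above all controls. The log2 fold change was 1.57 ± 0.39, 2.97-fold, and within the slides it was 0.89, 1.76 and 2.05. Without control 1 it was 2.02, without control 3 it was 1.23, and with normexp background correction it was 1.20. This single probe starts at base 35 of the transcript, near the 5′ end.

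SOAT1 esterifies cholesterol for storage in lipid droplets, the opposite direction to its use by STAR. It read 8.12, 8.01 and 8.14 on the controls and 9.83, 9.93 and 9.98 on the t(1;14) arrays. It read 8.26, 8.26 and 8.34 on the oligospermic arrays. The SD was 0.07 over the controls and 0.08 over the t(1;14) arrays, small beside the distance between them. The log2 fold change was 1.82 ± 0.11, 3.54-fold, and its other probe gave 1.52 ± 0.14.

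SQLE, which oxidizes squalene on the way to the sterol ring, stood apart from the other measured members. It read 12.20, 12.37 and 12.42 on the controls, 12.39, 12.36 and 12.32 on the oligospermic arrays and 12.40, 12.57 and 12.60 on the t(1;14) arrays. The t(1;14) and control arrays overlapped, the t(1;14) arrays lay just above the oligospermic ones, and the log2 fold change of t(1;14) against control was 0.19 ± 0.12. The probe at base 949 gave -0.07 ± 0.17 and the third probe, which shares 57 bases with the chosen one, 0.23 ± 0.14. Of the 5508 gene symbols 2478 had a higher log2 fold change than SQLE.

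Over the 5 measured members the median log2 fold change of t(1;14) against control was 1.82, where the median over all 5508 gene symbols was 0.09 and over all 38759 probes 0.14. The groups did not overlap for 4 of the 5, as they did not for 65.7% of all gene symbols. Against the oligospermic arrays the members' median was 2.13 and the groups did not overlap for 5 of 5, with 74.4% over all gene symbols. That comparison uses the same t(1;14) arrays that the members were chosen with, so it is no second observation of them. By their means t(1;14) was the highest group for each of the 5 chosen probes, though for SQLE its arrays overlapped the controls. Oligospermic came next and control last, except for APOE, where control was above oligospermic.

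**Figure D2:**
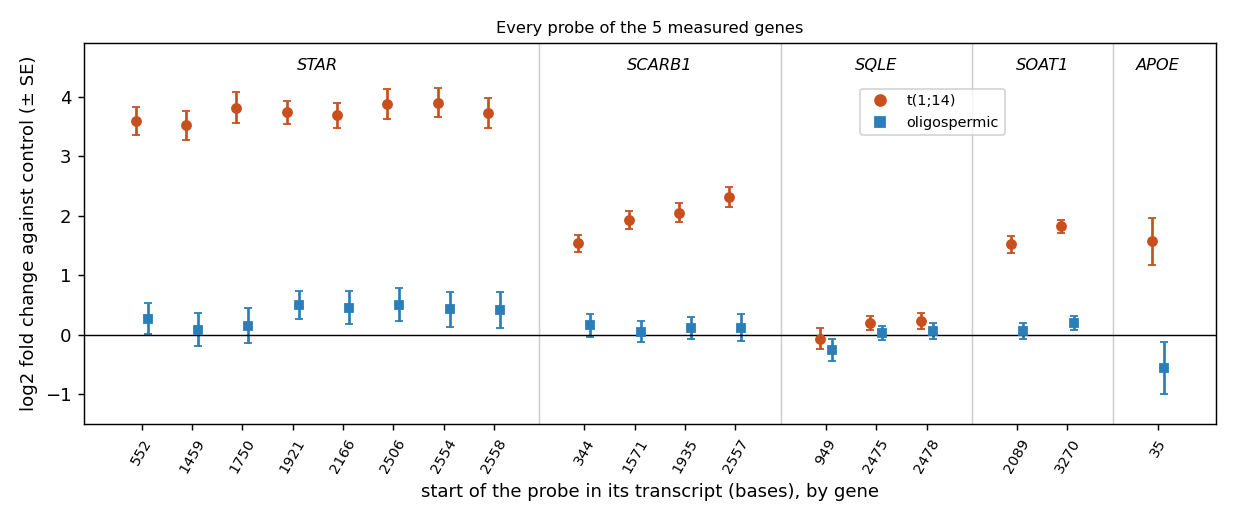
Log2 fold change against control (vertical axis, bars are SE from limma) of t(1;14) (circles) and oligospermic (squares) for all 18 probes, placed by gene and by the first base of the probe in its transcript (bases, horizontal axis), which for the 2 rightmost STAR probes is another transcript than for the rest. All 8 STAR probes lie between 3.52 and 3.90 in t(1;14), and the 3 SQLE probes lie between -0.07 and 0.23.

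Oligospermic against control is the comparison that was not used to choose the members, although it shares its control arrays with the one that was. None of the 5 genes passed the test: by limma the adjusted p over all probes was 0.677 to 0.977, and 0 of 5 had an unadjusted p under 0.05, where 10.6% of all gene symbols did. Over all gene symbols 0.0363% were higher and 0.0182% lower at an adjusted p of at most 0.01. The log2 fold changes were 0.42 ± 0.30 for STAR, 0.12 ± 0.23 for SCARB1, 0.02 ± 0.12 for SQLE, 0.20 ± 0.11 for SOAT1 and -0.56 ± 0.43 for APOE. With the slide as a block, which pairs these arrays, 0 of 5 passed and 1, APOE, had an unadjusted p under 0.05 (adjusted p = 0.357 by limma), as had 12.5% of all probes in that fit.

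The groups of oligospermic and control did not overlap for SOAT1 alone among the 5, as for 17.0% of all gene symbols. Within the slides its difference was 0.14, 0.25 and 0.20. For STAR the differences within the slides were 0.90, -0.02 and 0.38. The lowest was on the slide of control 2, and without that array the log2 fold change was 0.69 with an adjusted p of 0.351 by limma. Its unadjusted p was then under 0.05, as for 12.8% of all probes. Over the 6 arrays left out in turn the log2 fold change of STAR ran from 0.22 to 0.69. For APOE they were -0.99, -0.34 and -0.34, and without control 1 the log2 fold change was -0.11 with an adjusted p of 0.959 for APOE by limma, while without control 3 it was -0.89 with an adjusted p of 0.596 by limma.

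The other genes of the pathway were taken from 6 lists, which together name 81 genes besides the members, and 54 had a probe with values. Like the members, these lists were chosen with earlier results of these data known. Their counts in t(1;14) against control are therefore a description and no independent test. In t(1;14) against control 22 of the 54 rose and 8 fell at an adjusted p of at most 0.01 by limma, while over all gene symbols 16.7% rose and 18.8% fell. Without t(1;14) replicate 1 the count that rose was 14, and without t(1;14) replicate 3 it was 13. With the slide as a block, which pairs these arrays too, 18 rose and 8 fell. With a log2 threshold of 2 in either direction as well, 4 rose and 2 fell, against 1.54% and 5.10% of all gene symbols. The median log2 fold change of the 54 was 0.64. In oligospermic against control 0 of the 54 passed, with a lowest adjusted p of 0.261 by limma and 8 genes at an unadjusted p under 0.05, beside the 10.6% of all gene symbols.

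Among 11 genes of cholesterol synthesis, 6 rose and 2 fell in t(1;14), where 16.7% of all gene symbols rose and 18.8% fell. MSMO1, a demethylase of the late sterol steps, read 8.52, 8.15 and 8.32 on the controls and 11.06, 10.97 and 11.24 on the t(1;14) arrays. It rose by 2.76 ± 0.14 on the log2 scale (adjusted p = 0.000106 by limma), and its 3 probes gave 2.76 to 2.86. NSDHL, a dehydrogenase of the C4 demethylation, fell on its chosen probe, with a log2 fold change of -1.67 ± 0.14 (adjusted p = 0.000268 by limma). Its 5 probes disagreed, running from -1.69 to 0.82, and 2 passed.

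Among 9 genes of lipoprotein uptake and lysosomal release, 4 rose and 1 fell, against 16.7% and 18.8% of all gene symbols. LIPA, the lysosomal acid lipase that frees cholesterol from incoming esters, read 10.34, 10.01 and 10.00 on the controls and 12.14, 12.41 and 12.27 on the t(1;14) arrays. It rose by 2.16 ± 0.14 (adjusted p = 0.000139 by limma), and all 4 probes passed. NPC2 and NPC1, which hand cholesterol out of the lysosome, rose by 1.34 ± 0.14 and 1.18 ± 0.14 (adjusted p = 0.000552 and 0.000932 by limma). CD36, a scavenger receptor, fell, with a log2 fold change of -1.21 ± 0.17 (adjusted p = 0.00196 by limma, 0.0117 for CD36 without t(1;14) replicate 1). With normexp background correction the log2 fold change of CD36 was -0.60.

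Of 9 genes of esterification, lipid droplets and ester hydrolysis besides SOAT1, 1 rose and 3 fell, against 16.7% and 18.8% of all gene symbols. The median log2 fold change of the 9 was -0.40. LIPE, the hormone-sensitive lipase that hydrolyses stored cholesteryl esters, read 12.57, 13.65 and 13.21 on the controls and 10.67, 10.29 and 10.54 on the t(1;14) arrays. Its log2 fold change was -2.64 ± 0.28 (adjusted p = 0.000634 by limma), and -1.62 on its other probe. PLIN2, a coat protein of lipid droplets, fell by 1.56 ± 0.20 (adjusted p = 0.00122 by limma).

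Of 7 measured genes of cholesterol delivery to the mitochondrion and side chain cleavage besides STAR, 6 rose and 0 fell, where 16.7% of all gene symbols rose. The list also holds STARD4 and DBI, which are proteins of the cytosol. CYP11A1, the side chain cleavage enzyme, read 11.52, 11.63 and 11.66 on the controls and 14.02, 14.29 and 14.20 on the t(1;14) arrays. It rose by 2.57 ± 0.12 (adjusted p = 0.000106 by limma). FDXR and FDX1, which pass electrons to CYP11A1, rose by 1.68 ± 0.12 and 1.07 ± 0.14 (adjusted p = 0.000161 and 0.0014 by limma, and 0.0104 for FDX1 without t(1;14) replicate 3). VDAC1, a channel of the outer mitochondrial membrane, rose by 1.28 ± 0.15 (adjusted p = 0.000937 by limma). TSPO, an outer membrane protein that binds cholesterol, was the 1 gene that did not pass, at 0.36 ± 0.23 (adjusted p = 0.227 by limma).

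On the oligospermic arrays CYP11A1 read 11.49, 11.19 and 11.005, all below the controls, while STAR overlapped them. Its log2 fold change against control was -0.37 ± 0.16 and did not pass the test (adjusted p = 0.513 by limma). TSPO read 10.66, 11.12 and 10.23 on the controls and 10.22, 10.06 and 9.87 on the oligospermic arrays, also without overlap and without passing (log2 fold change -0.62 ± 0.24, adjusted p = 0.472 by limma). CYP11A1 was 1 of 5 pathway genes, of 54, whose t(1;14) and oligospermic arrays lay on opposite sides of all controls, as did those of 5.72% of all gene symbols.

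Of 7 genes of efflux and sterol sensing, 2 rose and 0 fell, where 16.7% of all gene symbols rose and 18.8% fell. APOA1, the main protein of high-density lipoprotein, rose by 1.02 ± 0.20 (adjusted p = 0.00662 by limma), a call that was lost in 9 of the alternatives. Among them were the slide as a block (adjusted p = 0.0108) and leaving out control 3 or any of the t(1;14) arrays (0.0107 to 0.0285 by limma). Of 11 regulators 3 were higher and 2 lower, beside the same shares of all gene symbols. NR5A1, the nuclear receptor that drives STAR and other steroidogenic genes, rose by 1.06 ± 0.12 on its chosen probe (adjusted p = 0.000727 by limma) and gave 0.17 on its other probe. SREBF2, the transcription factor released to the nucleus when sterols are short, did not pass, at 0.12 ± 0.15 (adjusted p = 0.517 by limma).

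SCAP, the sterol-sensing escort of that factor, rose by 1.20 ± 0.20 (adjusted p = 0.00343 by limma). Without control 3 or any of the t(1;14) arrays the adjusted p of SCAP was 0.0116 to 0.0167 by limma. AKAP1, which anchors protein kinase A at mitochondria, read 6.94, 7.30 and 7.14 on the controls and 4.83, 5.63 and 4.51 on the t(1;14) arrays, a log2 fold change of -2.13 ± 0.29 (adjusted p = 0.00171 by limma). With normexp background correction the log2 fold change of AKAP1 was -1.07. CREM, a cyclic AMP responsive factor known for its role in spermatids, fell with a log2 fold change of -1.55 ± 0.10 (adjusted p = 0.000139 by limma). Its 2 probes gave -1.55 and -0.61, and 1 passed.

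**Figure D3:**
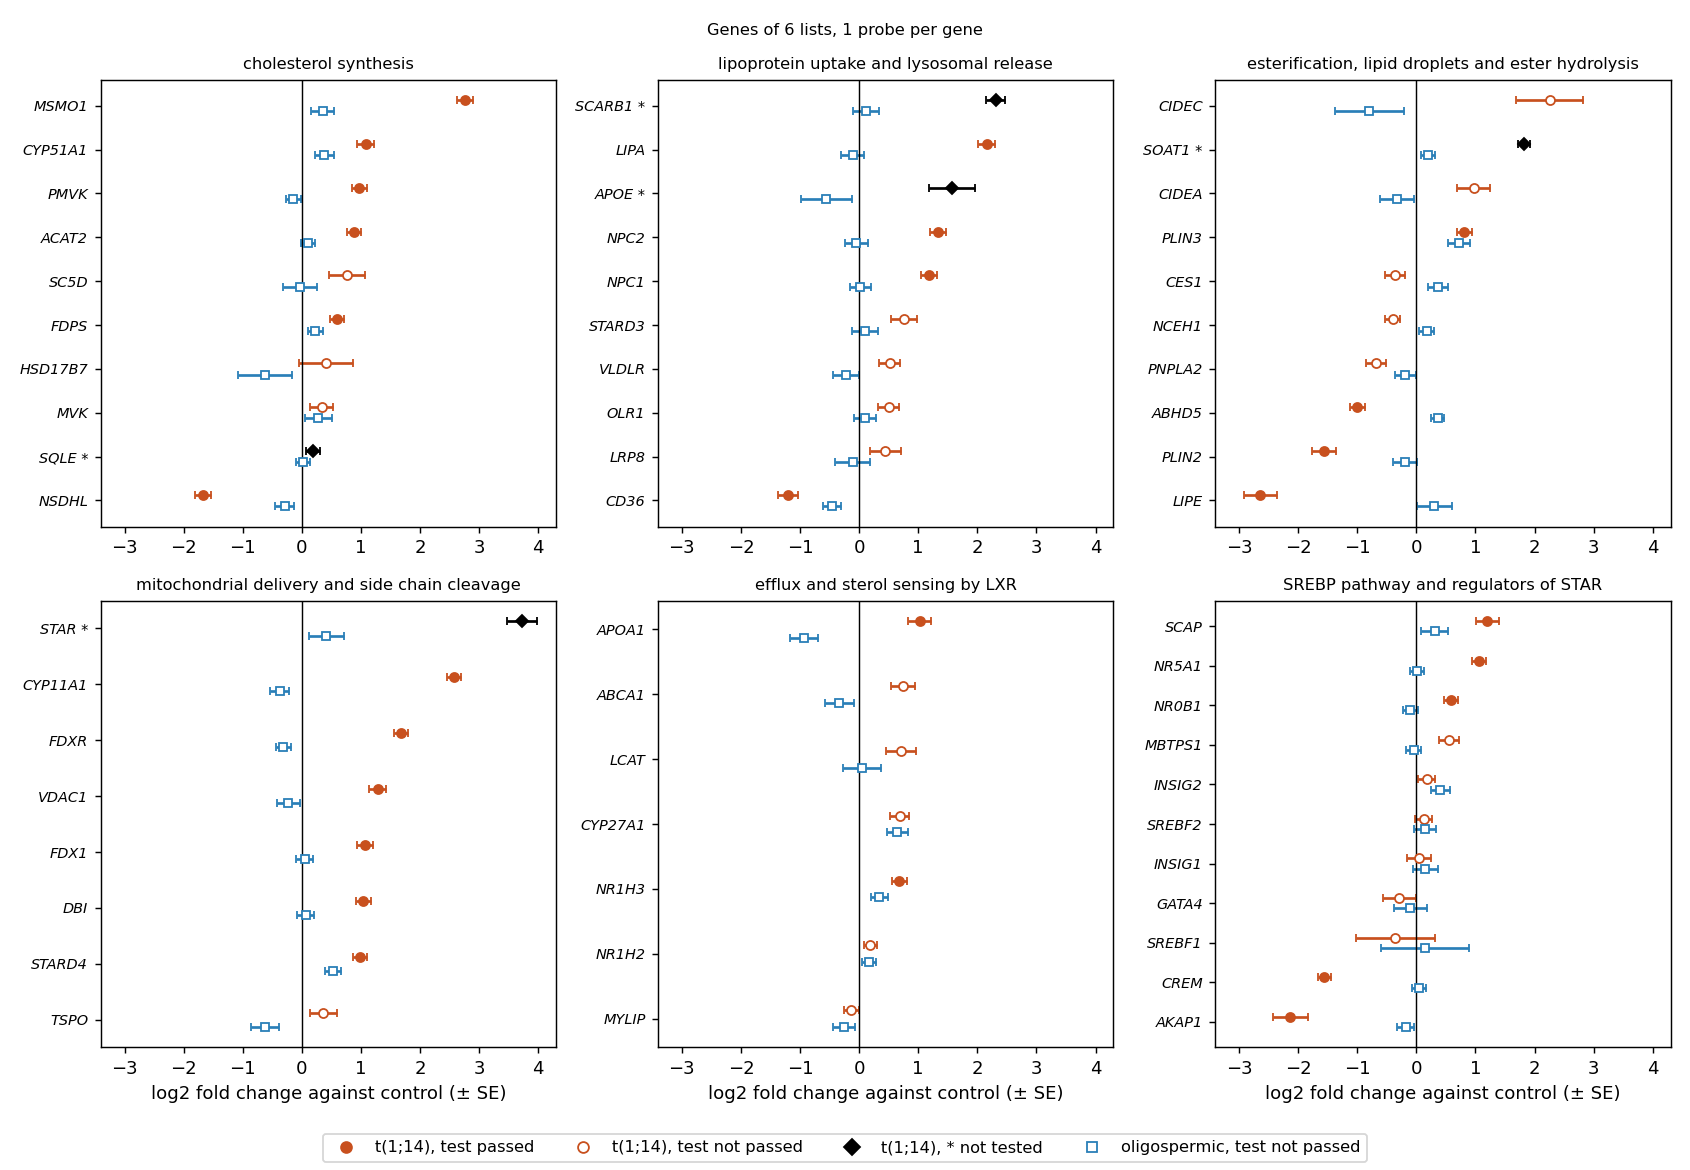
Log2 fold change against control (horizontal axis, bars are SE from limma) of measured genes of 6 lists, 1 probe per gene; circles are t(1;14) and squares oligospermic, filled where the adjusted p was at most 0.01, and black diamonds with an asterisk are the members in t(1;14), which were not tested. In the panel of mitochondrial delivery every t(1;14) value is above 0, from 0.36 for TSPO to 3.72 for STAR, and no oligospermic gene passed the test.

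Markers of the cell types of the testis were read on the same arrays, from lists also chosen with earlier results of these data known. Beside the marker counts in t(1;14) against control, 16.7% of all gene symbols rose and 18.8% fell. The mean log2 intensity of 6 Leydig cell markers lay between 10.18 and 10.30 on the controls, 10.23 and 10.52 on the oligospermic arrays and 11.63 and 11.76 on the t(1;14) arrays. Of these markers 4 rose in t(1;14) and 0 fell, and CYP11A1 is 1 of them. LHCGR, the receptor for luteinizing hormone, rose by 2.72 ± 0.15 (adjusted p = 0.000107 by limma). The chosen probe of INSL3, a peptide hormone of Leydig cells, was saturated on 2 of the 3 t(1;14) arrays and on 1 oligospermic array, so its log2 fold change of 0.33 is a capped value. The 3 INSL3 probes ran from 0.33 to 1.92, and 1 passed the test. The log2 fold change of CYP19A1 was 0.30 and did not pass (adjusted p = 0.119 by limma).

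The mean of 4 spermatid markers went from 13.42 to 13.64 on the controls and 13.41 to 13.47 on the oligospermic arrays down to 11.92 to 12.004 on the t(1;14) arrays, and 3 of the 4 fell. This mean holds saturated spots, of PRM2 on 3 control, 3 oligospermic and 1 t(1;14) arrays and of TNP2 on 1 control and 3 oligospermic arrays. The unsaturated markers ACRV1 and AKAP4 had log2 fold changes of -2.39 ± 0.13 and -2.27 ± 0.17 (adjusted p = 0.000106 and 0.000184 by limma). The mean of 6 Sertoli cell markers overlapped between all groups, from 8.97 to 9.39 over the 9 arrays. Of these markers 0 rose and 1 fell in t(1;14) against control: WT1 had a log2 fold change of -1.42 ± 0.15 (adjusted p = 0.000611 by limma), and CLDN11 one of 0.61 ± 0.28 that did not pass (adjusted p = 0.107 by limma).

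The mean of 6 macrophage markers, cells that also express APOE and LIPA, lay between 5.86 and 6.69 on the controls, 5.62 and 5.83 on the oligospermic arrays and 6.29 and 6.52 on the t(1;14) arrays. The oligospermic arrays lay below all others, but 0 of the 6 markers passed there against control (lowest adjusted p = 0.474 by limma). Of the 6 markers 1 rose and 1 fell in t(1;14) against control, and 5 were higher and 1 lower against oligospermic, where 28.5% of all gene symbols were higher and 26.1% lower at an adjusted p of at most 0.01. The mean of 2 spermatogonium markers lay between 10.44 and 11.02 on the controls, 10.11 and 10.54 on the oligospermic arrays and 11.48 and 11.60 on the t(1;14) arrays. The mean of 4 spermatocyte markers lay between 9.86 and 9.98 on the controls, above the oligospermic arrays at 9.38 to 9.61 and the t(1;14) arrays at 9.65 to 9.79. The lower oligospermic mean came from SPO11, with a log2 fold change of -2.13 against control (adjusted p = 0.0388 by limma), while the other markers lay between 0.05 and 0.19. In t(1;14) 1 of the 4 rose, HORMAD1 by 0.96 (adjusted p = 0.00131 by limma), and 1 fell, SPO11 with -1.02 on its chosen probe (adjusted p = 0.00792 by limma) and 0.72 on its other. MYBL1, with -1.05, and PIWIL1, with 0.20, did not pass (adjusted p = 0.0284 and 0.217 by limma). For 7 peritubular and endothelial markers the mean lay between 7.90 and 8.94 on the controls, 8.56 and 8.65 on the oligospermic arrays and 8.87 and 9.08 on the t(1;14) arrays. The lowest control mean held a TEK value of 1.77, and TEK was well above background on 2 of the 3 controls. In t(1;14) the endothelial markers PECAM1 and VWF rose by 1.41 and 0.92 (adjusted p = 0.00265 and 0.0064 by limma), and CNN1 of smooth muscle fell, with a log2 fold change of -1.08 (adjusted p = 0.00347 by limma). No measured marker of the 7 lists was below background on all 9 arrays. The study's histology of the t(1;14) testis found severe hyperplasia of interstitial cells and moderate atrophy of the seminiferous tubules. It also gives normal plasma levels of luteinizing hormone, progesterone, testosterone and androstenedione for this boar. The part of cell makeup in the values of STAR and its supply genes was not tested.

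**Figure D4:**
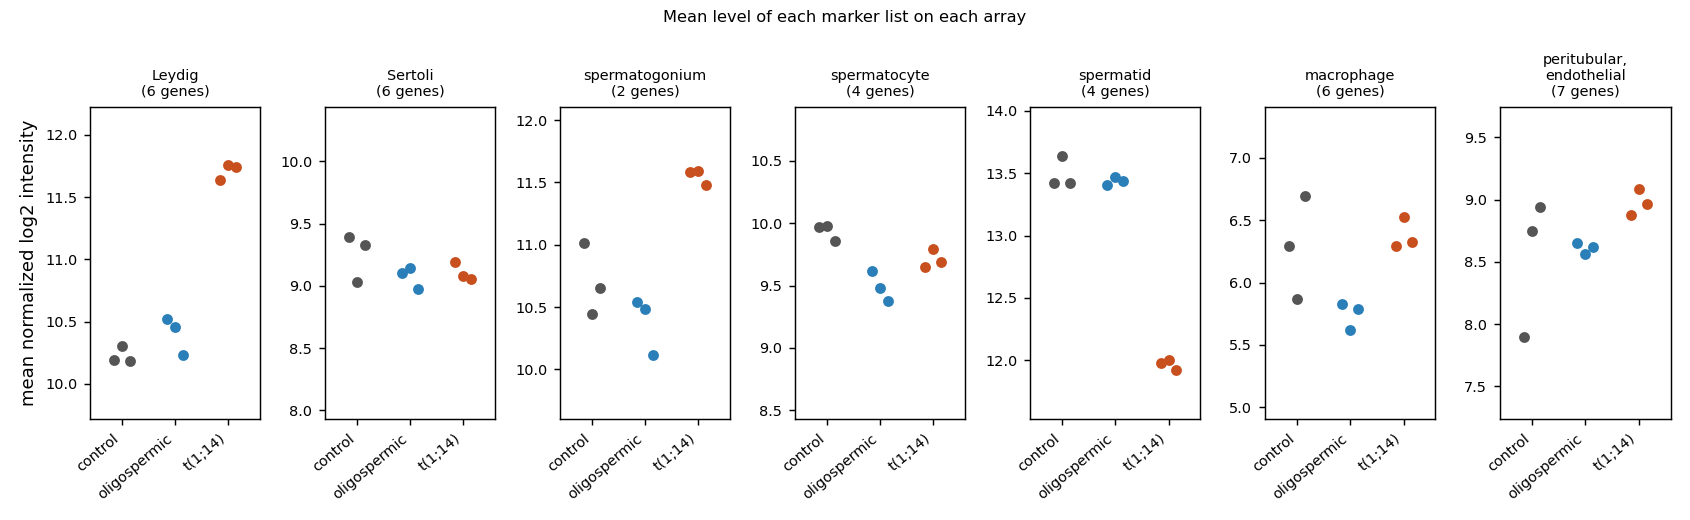
Mean normalized log2 intensity (vertical axis, the same span of 2.5 log2 units in each panel) of 7 lists of cell type markers on each of the 9 arrays, by group; each point is 1 array. The Leydig list lies at 11.63 to 11.76 on the t(1;14) arrays and at 10.18 to 10.52 on the others, and the spermatid list lies at 11.92 to 12.004 on the t(1;14) arrays and at 13.41 to 13.64 on the others, with some spots of both lists saturated.

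As a description over the 9 arrays, the 5 gene symbols whose chosen probe was most like that of STAR, of 5507 ranked by Pearson's correlation, were CYP17A1, GSTO1, SLC26A3, RTN4 and CCBL2, with r between 0.9958 and 0.9979. The 9 arrays share the normalization and fall into a high t(1;14) group and the rest, which sets most of such a correlation. CYP17A1, which converts pregnenolone towards androgens, was highest, and it read 8.49, 8.80 and 8.32 on the controls, 9.18, 8.94 and 8.61 on the oligospermic arrays and 10.82, 10.97 and 10.996 on the t(1;14) arrays. Like STAR it was highest on control 2 among the controls and lowest on oligospermic 3 among the oligospermic arrays. SLC26A3 was not well above background on any control or oligospermic array.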

How the data were processed

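Total RNA was labelled with cyanine 3, hybridized to a 60K custom porcine array and read with Agilent Feature Extraction 11.5.1.1, per the file headers. The authors deposited the spot intensity of each array, background-subtracted and not normalized between arrays, and log2 values for 38759 of 60889 probes. Ranked within each array, these log2 values differ between the 9 arrays by no more than 0.0016, as after quantile normalization over all of them, and they were used as deposited. The submitters' processing notes name limma.

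The 6 arrays of each comparison were fitted with limma 3.58.1 (R 4.3.3), with p adjusted by the Benjamini-Hochberg method over the 38759 probes. The threshold was 0.01 for the adjusted p, and a called probe also had to differ by 2 or more on the log2 scale. The fit was also run on simulated arrays with independent errors and no slide effect, which cannot check p values for arrays that share a slide. Background shares were counted over 5508 gene symbols, 1 probe each. Tables and figures were made with Python 3.11.15, pandas 2.3.3 and matplotlib 3.10.9.

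The members and all lists were chosen with earlier results of these data known. Of the pathway genes, CYP11A1, TSPO, NPC1, SREBF2 and NR5A1 were named whatever their values, and at most 4 per list because they passed and differed by 1 or more on the log2 scale in t(1;14) against control. STARD4, DBI and the cell type markers other than CYP11A1 and CYP17A1 were named after their values were seen. Some genes that count in the lists are not reported by name or plotted here.

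Oligospermic and control arrays of the same number share a slide, and their deviations from the group means correlated at 0.495, 0.120 and 0.109, so the numbers pair them. Those of t(1;14) and control correlated at -0.287, -0.196 and 0.153, so their numbers do not pair them, but on the same slide they correlated at 0.360, 0.112 and 0.130, so the slide does. The alternatives were scanner signals (quantile over 9 or 6 arrays, 75th percentile, normexp with offset 50, no filter, a filter in both groups), slide or replicate block, an intensity trend, all 9 arrays in one model, the median over a gene's probes, a log2 fold threshold of 1 and leaving out each array. Chromosome names, and nothing else of position, come from RefSeq genes of Sscrofa11.1.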

Additional observations from a re-analysis of the deposited data

Results flagged for a closer look

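In 5 pathway genes every t(1;14) array lay on 1 side of all controls and every oligospermic array on the other, as for 5.72% of all gene symbols. That position fixes the direction of t(1;14) against oligospermic, so the difference was not tested and is given as a description. The log2 difference was 2.94 for CYP11A1, 1.99 for FDXR and 1.96 for APOA1. It was -1.36 for ABHD5, a coactivator of lipid droplet lipolysis, and -0.57 for NCEH1, a cholesteryl ester hydrolase. ABHD5 and NCEH1 are named here after their values were seen.

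The array also holds probes of STAR, SCARB1 and APOE that carry an accession in place of a gene name and that the choice of probes by name does not take. Their signal was above the controls in t(1;14): the log2 fold change was 3.80 for STAR, 2.29 for SCARB1 and 1.75 for APOE. The STAR and SCARB1 probes have the same bases as a probe already described. The APOE probe has other bases, and it read 12.50, 11.49 and 10.99 on the controls and 13.24, 13.66 and 13.32 on the t(1;14) arrays, again with control 1 the highest control.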

How the results depend on the processing

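The median log2 fold change of the members in t(1;14) against control (1.82) was the value of SOAT1, with an SE of 0.11. It ran from 1.66, with normexp correction, to 1.82 under the other settings, and from 1.78 to 2.02 when 1 array was left out. SCARB1 ran from 1.99 to 2.34 under those settings. The count of members and of pathway genes that passed in oligospermic against control stayed at 0. Against oligospermic the members' median of 2.13 was 1.57 with normexp correction and 1.91 with the median over a gene's probes, and 1.90 to 2.36 when 1 array was left out. SQLE there was -0.020 with 75th percentile scaling. The 22 pathway genes that rose in t(1;14) became 18 with the slide block, 14 with the replicate block, 14 without t(1;14) replicate 1 and 13 without t(1;14) replicate 3, the lowest of a leave-one-out range of 13 to 22. NSDHL was 0.48 with the median over its probes. At a log2 fold threshold of 1, 22 pathway genes and 7516 probes were called in t(1;14) in place of 6 and 2150, and normexp correction called 996 probes. In oligospermic against control 25 probes were called, 0 with the replicate or the slide block (4829 at an unadjusted p under 0.05), 14 with normexp, 15 without a filter, 16 with a filter in both groups, 52 with all arrays in one model and 6 to 42 when 1 array was left out. The cause was not tested. The number of arrays, 3 per group, limits the precision. The median log2 fold change over all probes in t(1;14) was 0.14, and 0.03 without a filter.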
